A study of Mus musculus with 6 samples.

Results

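The interferon-inducible GTPases of the immunity-related GTPase (Irg) and guanylate-binding protein (Gbp) families were followed across 6 pools of mouse colonic mucosa. The genes were chosen by name, as the array probes whose only gene symbol was Irgm1, Irgm2, Igtp, Iigp1, Ifi47, Tgtp1, Gbp2, Gbp2b or Gbp3. Of these 9 genes, 8 had at least 1 such probe (11 probes in all), out of 17703 genes with a probe of a single symbol, and Gbp2 was not analysed here. The pools came from FVB/N6 mice aged 8 weeks, with 5 mice in each pool and 1 pool for each of 6 groups. The Foxo4_KO groups, from mice lacking the transcription factor Foxo4, had received TNBS (250 mg, the basis of this amount not being stated, in 50% ethanol), 50% ethanol or no treatment, and the WT groups had received the same. Enemas were given 2 days before sampling, and TNBS (trinitrobenzene sulfonic acid) is a hapten that induces colitis in mice when ethanol opens the mucosal barrier. The labels do not say how the Foxo4 allele was made or which sex the mice were. Each pool was hybridised to 1 Illumina bead array, so no group had a replicate, and the 3 treatments stood in for replicates of a genotype.

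Irg and Gbp proteins are GTPases that mouse cells make in quantity once interferon, above all interferon gamma, reaches them. Regulatory Irg proteins carry a GMS sequence in their nucleotide-binding site and sit on the cell's own membranes, where they hold the effector Irg proteins, which carry the usual GKS sequence, inactive. Effector Irg and Gbp proteins gather on the vacuoles of intracellular pathogens such as Toxoplasma and break them. Their genes are switched on through gamma-activated sites and through interferon-stimulated response elements, the second of which are bound by IRF proteins.

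The genes lie in clusters. In the mouse build GRCm38.p6, chromosome 11 holds Irgm1 (48865245 to 48871420), Tgtp1 (48985329 to 48992246) and Ifi47 (49076587 to 49096987) close together, and Igtp (58199556 to 58207592) directly before Irgm2 (58214977 to 58222783). Gbp3 (142560016 to 142573213), Gbp2b (142594816 to 142619179) and Gbp2 (142620663 to 142638008) follow each other on chromosome 3. Iigp1 lies elsewhere. Their RefSeq promoters, the 250 bases before each transcript start, were searched on both strands for the core of the interferon-stimulated response element (GAAA, any 2 bases, GAAA) and for the gamma-activated site (TTC, any 3 bases, GAA). RefSeq windows were held for 8 of the 9 genes.

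The response element core lay in 7 of their 9 windows, as in 2.98% of all 32851 promoter windows, and the 7 belong to 7 of the 8 genes, Ifi47 being the exception (3.46% of 27025 genes had it). The gamma-activated site lay in 3 of the 9 windows, those of Igtp, Irgm2 and Tgtp1, as in 7.02% of all windows (8.13% of genes). The same 3 genes had both motifs, as 0.332% of all windows did. A match is a description of the letters and not evidence of binding, and the windows of Igtp and Irgm2, aligned end to end with gaps, share 194 of 250 bases (77.6%), so these are not separate observations. The Tgtp1 window shares 133 bases (53.2%) with each of them, and that of Gbp2 shares 108 (43.2%) with that of Gbp2b. These matches may thus not be separate observations either. The 150 bases before the start of the 6 genes measured above background, and of Tgtp1, which shares the arrangement of Irgm2 and Igtp, are shown with the motifs in capitals, on the gene's own strand and in GRCm38.p6.
Irgm1 (chr11:48871421-48871570, minus strand): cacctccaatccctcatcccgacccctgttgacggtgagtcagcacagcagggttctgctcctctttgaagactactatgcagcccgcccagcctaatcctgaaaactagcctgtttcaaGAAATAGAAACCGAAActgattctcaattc
Irgm2 (chr11:58214827-58214976, plus strand): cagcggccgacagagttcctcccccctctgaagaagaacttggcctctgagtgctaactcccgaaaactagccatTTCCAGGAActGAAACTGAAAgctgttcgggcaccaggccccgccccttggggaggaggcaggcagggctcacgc
Igtp (chr11:58199406-58199555, plus strand): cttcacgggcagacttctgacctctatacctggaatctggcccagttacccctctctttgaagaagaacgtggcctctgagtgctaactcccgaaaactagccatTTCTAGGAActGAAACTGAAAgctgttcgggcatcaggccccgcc
Tgtp1 (chr11:48992247-48992396, minus strand): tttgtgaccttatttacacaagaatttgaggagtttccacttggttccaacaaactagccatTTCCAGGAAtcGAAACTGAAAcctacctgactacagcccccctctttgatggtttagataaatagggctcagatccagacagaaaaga
Ifi47 (chr11:49076437-49076586, plus strand): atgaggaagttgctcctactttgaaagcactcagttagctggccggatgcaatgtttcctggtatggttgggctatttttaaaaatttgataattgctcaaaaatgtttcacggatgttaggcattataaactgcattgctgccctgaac
Gbp2b (chr3:142594697-142594846, plus strand): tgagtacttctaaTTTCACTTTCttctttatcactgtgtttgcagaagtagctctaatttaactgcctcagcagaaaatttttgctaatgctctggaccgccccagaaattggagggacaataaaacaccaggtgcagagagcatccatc
Gbp3 (chr3:142559894-142560043, plus strand): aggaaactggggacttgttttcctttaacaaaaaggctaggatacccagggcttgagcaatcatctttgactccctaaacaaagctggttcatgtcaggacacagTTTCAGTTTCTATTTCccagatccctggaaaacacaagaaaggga
In Igtp, Irgm2 and Tgtp1 a gamma-activated site is followed after 2 bases by a response element core, at 34 to 25 bases before the start in Igtp, 64 to 55 in Irgm2 and 77 to 68 in Tgtp1. Irgm1 has a pair of overlapping cores between 30 and 15 bases before its start. Gbp3 has a pair as well, between 45 and 30 bases before its start, read on the opposite strand, and its other RefSeq window held neither motif. Gbp2b has a single core further out, 137 to 128 bases before its start, on the opposite strand. No match in Ifi47 says only that these letters are absent from this window.

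The whole series bears on these genes in the following ways. Mean bead signal was 225 to 277 per array, and 11181 to 14363 probes had a detection p under 0.01. The Foxo4 probe lay at background on all 6 arrays (normalized log2 signal 4.42 to 4.75, detection p 0.168 to 0.903), so it does not check the genotype labels. Of 14 colonic epithelial markers, 1 was higher and 4 were lower in Foxo4_KO pools in all 3 treatments. Over all genes tested, 13.3% were higher and 18.6% lower in this way. The summed signal of these markers was 70855 to 78510 in Foxo4_KO pools and 73711 to 80401 in WT pools. Ileal and Paneth cell markers, which colon should lack, were high in both TNBS pools (summed signal 31489 in the Foxo4_KO pool and 11644 in the WT pool, against 650 to 2053 in the other 4 pools). Xist, singled out after its values were seen, had a log2 signal of 7.51 (TNBS), 5.56 (ethanol) and 10.36 (untreated) in Foxo4_KO pools, and 5.51, 5.64 and 9.85 in WT pools in the same order. The untreated pools of both genotypes thus stood apart from the enema pools in Xist, and its part in the results was not tested.

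Irgm1, Irgm2, Igtp, Ifi47, Gbp2b and Gbp3 were above background, and all 6 had higher signals in every Foxo4_KO pool than in any WT pool. Of 8948 genes tested, 5.93% were separated in this direction. Gbp2b differed most, averaging 4.59 times the WT signal over a WT mean in which 2 of 3 pools were above background, and it was the single gene of the 6 whose difference passed the adjusted threshold of 0.05. The genotype differences of the other 5 were 0.86 to 1.44 on the log2 scale, or 1.81-fold to 2.72-fold, and did not pass. In the tissue of a pool, fewer cells of a type and less RNA per cell cannot be told apart.

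**Figure D1:**
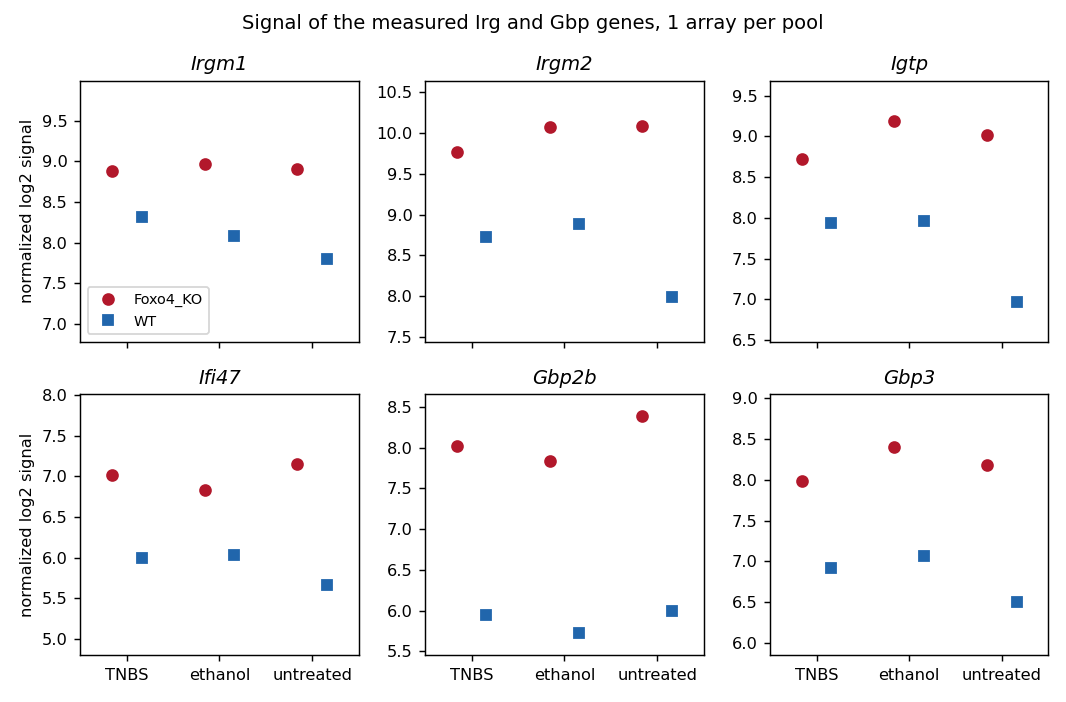
Normalized log2 signal of the 6 genes measured above background (vertical axis, each panel spanning the same range) in each pool, by treatment (horizontal axis), with Foxo4_KO pools as red circles and WT pools as blue squares. In each panel the 3 circles lie above the 3 squares, and for every gene but Gbp2b the untreated WT pool is the lowest.

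Among the regulatory Irg genes, Irgm2, whose protein sits at the Golgi, had normalized log2 signals of 9.77 (TNBS), 10.08 (ethanol) and 10.09 (untreated) in Foxo4_KO pools, against 8.72, 8.89 and 7.99 in WT pools in the same order. Its lowest Foxo4_KO pool lay 0.88 above its highest WT pool. Igtp, also called Irgm3 and found on the endoplasmic reticulum and lipid droplets, had 8.72 (TNBS), 9.19 (ethanol) and 9.02 (untreated) in Foxo4_KO pools, against 7.94, 7.96 and 6.97 in WT pools. The untreated WT pool was the low one for both genes. In the additive limma fit, which separates genotype from treatment, Irgm2 was higher in Foxo4_KO by 1.44 (SE 0.23, adjusted p = 0.117) and Igtp by 1.35 (SE 0.25, adjusted p = 0.147).

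Irgm1, the regulator whose loss in mice upsets autophagy and gut inflammation, had the smallest fitted difference of the 6, although Ifi47 was below it in the ethanol pair and without background correction. Its log2 signal was 8.88 (TNBS), 8.97 (ethanol) and 8.91 (untreated) in Foxo4_KO pools, against 8.31, 8.08 and 7.80 in WT pools. The Foxo4_KO pools were nearly level (SD 0.05 over the 3 treatments) and the WT pools spread more (SD 0.25). The fitted difference was 0.86 (SE 0.15, adjusted p = 0.144). A second Irgm1 probe was at background on all 6 arrays (log2 4.41 to 4.54), so this gene rests on 1 of its 2 probes.

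Among the effector Irg genes, Ifi47, also called Irgd, was the single gene above background. Its log2 signal was 7.01 (TNBS), 6.83 (ethanol) and 7.15 (untreated) in Foxo4_KO pools, against 6.00, 6.03 and 5.66 in WT pools. The WT values were close to the limit of detection (detection p 0.00873, 0.00686 and 0.00686 in that order). The fitted difference was 1.10 (SE 0.17, adjusted p = 0.117). The other effectors, Iigp1 (Irga6) with 3 probes and Tgtp1 (Irgb6) with 1, were above background on no array. The 5 dim probes of these 2 genes and of Irgm1 ranged from 4.36 to 4.73 with detection p of 0.192 to 0.988, and no difference is given for them.

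Among the Gbp genes, Gbp2b, which encodes the protein long known as mouse Gbp1, had log2 signals of 8.02 (TNBS), 7.84 (ethanol) and 8.39 (untreated) in Foxo4_KO pools, against 5.95, 5.72 and 5.99 in WT pools. The gap between the lowest Foxo4_KO pool and the highest WT pool was 1.86, wider than the spread within either genotype. The fitted difference was 2.20 (SE 0.14, adjusted p = 0.0202 by limma with Benjamini-Hochberg adjustment), and Gbp2b had the second smallest p of all genes tested. In WT pools it was barely above background (detection p 0.00936 in the TNBS pool and 0.00561 in the untreated pool) or below it (0.0112 in the ethanol pool), so within the ethanol treatment the difference is given as at least 4.21-fold. Gbp3, its neighbour on chromosome 3, had 7.99 (TNBS), 8.40 (ethanol) and 8.18 (untreated) in Foxo4_KO pools, against 6.92, 7.07 and 6.50 in WT pools. Its fitted difference was 1.36 (SE 0.16, adjusted p = 0.0673). Whether a probe also reads transcripts of a related Irg or Gbp gene was not tested.

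Set against all genes, limma called 12 of 8948 for genotype (0.134%), every one higher in Foxo4_KO. At an unadjusted p under 0.05, all 6 GTPase genes were higher in Foxo4_KO, as were 6.1% of all genes. The median difference of the 6 was 1.35, while that of all genes was -0.03 and 95% of all genes lay between -0.46 and 0.80. The adjusted result for Gbp2b rests on all 6 pools: leaving out 1 pool takes its treatment out of the genotype comparison, and the difference then stayed between 2.10 and 2.26 with adjusted p of 0.128 without a Foxo4_KO or WT untreated pool, 0.1 without an ethanol pool and 0.191 without a TNBS pool. With each array scaled to its median in place of quantile normalization, all 6 genes passed (adjusted p 2.68e-05 to 0.0331), among 124 genes called (94.4% of them higher), and the median of all genes moved by 0.12.

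**Figure D2:**
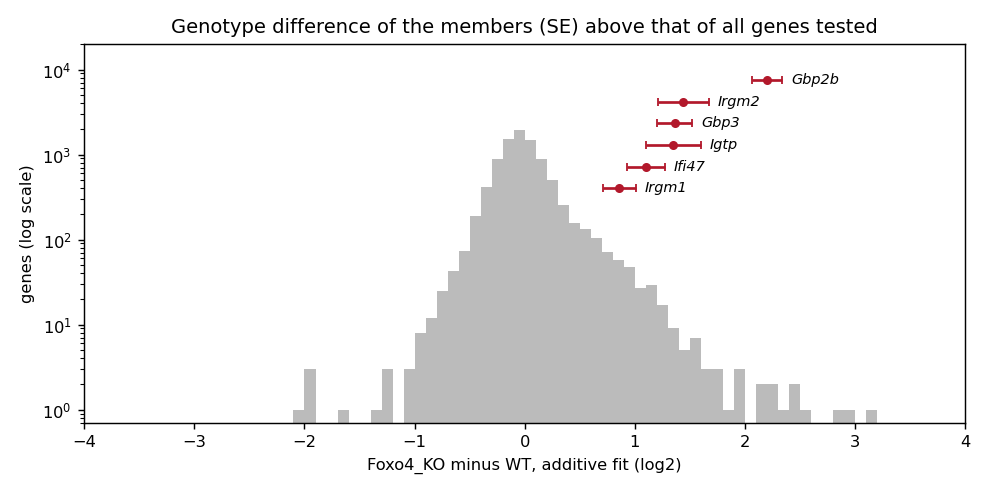
Number of genes (vertical axis, log scale) by genotype difference, Foxo4_KO minus WT (horizontal axis, log2, additive fit), for the 8948 genes tested (grey), with the 6 GTPase genes as red points whose bars are standard errors and whose height has no meaning. The points run from Irgm1 at 0.86 to Gbp2b at 2.20.

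Within each treatment the same 6 genes were compared between 1 pool and 1 pool, with no test. In TNBS pools, Irgm2 (1.05 higher in Foxo4_KO on the log2 scale), Ifi47 (1.01), Gbp2b (2.07) and Gbp3 (1.06) were at least 2-fold higher in Foxo4_KO, as were 3.23% of all genes, and Igtp (0.78) and Irgm1 (0.57) were less apart. In ethanol pools, Irgm2 (1.18), Igtp (1.23), Gbp2b (2.12 as fitted to the dim WT pool) and Gbp3 (1.33) were at least 2-fold higher, as were 4.14% of all genes, and Irgm1 (0.89) and Ifi47 (0.80) were less apart. In untreated pools all 6 were at least 2-fold higher, as were 1.15% of all genes, from 1.11 for Irgm1 to 2.41 for Gbp2b. Irgm2, Gbp2b and Gbp3 were at least 2-fold higher in all 3 treatments, which held for 0.313% of all genes. Without background correction the count was 1 in place of 4 in TNBS pools, Irgm2, Ifi47 and Gbp3 having been at 1.01 to 1.06, and 4 in place of 6 in untreated pools.

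**Figure D3:**
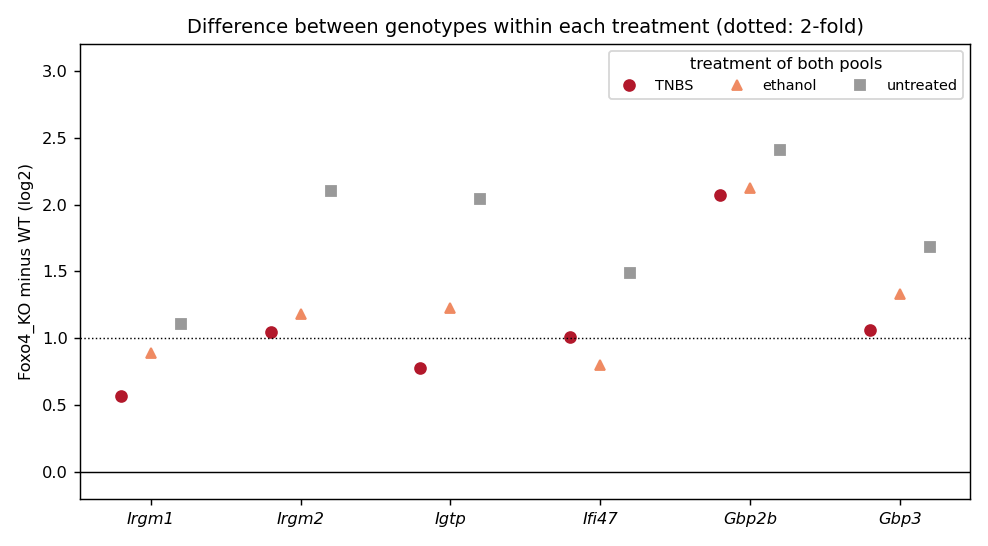
Difference between the Foxo4_KO and WT pools of the same treatment (vertical axis, log2) for each of the 6 genes (horizontal axis), with TNBS as circles, ethanol as triangles and untreated as squares. For every gene the untreated pair is the farthest apart, and the dotted line marks 2-fold.

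For each of the 6 genes the fitted treatment differences were smaller than the fitted genotype difference. In the additive limma fit none of the 6 passed the threshold for TNBS against ethanol (16 genes called, 0.179% of all), for ethanol against untreated (0 genes called) or for TNBS against untreated (31 genes called, 0.346% of all). None of the 6 had an unadjusted p under 0.05 in these contrasts, while 6.28% of all genes did for TNBS against ethanol, 4.16% (372 genes) for ethanol against untreated and 11.7% for TNBS against untreated. The median differences of the 6 were -0.09 for TNBS against ethanol, 0.28 for ethanol against untreated and 0.16 for TNBS against untreated, against 0.01, 0.00 and 0.00 for all genes. These contrasts share pools, and single pools set the signs of the medians. Without the Foxo4_KO TNBS pool the median for TNBS against ethanol was 0.16. Without the untreated WT pool the medians for ethanol against untreated and for TNBS against untreated were -0.04 and -0.19, and without the WT TNBS pool the median for TNBS against untreated was -0.09.

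Between ethanol and untreated pools the steps differed by genotype. In Foxo4_KO pools Igtp was 0.18 higher after ethanol and Irgm2 0.02 lower, against 0.99 and 0.90 higher in WT pools. Gbp3 was 0.22 higher after ethanol in Foxo4_KO pools, against 0.57 higher in WT pools. Ifi47 was 0.32 lower in Foxo4_KO pools, against 0.37 higher in WT pools. For Irgm1 the step was 0.06 in Foxo4_KO pools and 0.28 in WT pools, and for Gbp2b it was -0.55 and -0.27. The step was thus less positive or more negative in Foxo4_KO for all 6 genes, by a median of 0.52 and by 0.22 to 0.92, while the same quantity had a median of 0.01 over all genes. It restates that the genotypes were farther apart in untreated than in ethanol pools, rests on 4 pools and was not tested. The untreated WT pool was the lowest of all 6 pools for 5 of the 6 genes, as it was for 15% of all genes.

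Between TNBS and ethanol pools the steps were small in both genotypes. In Foxo4_KO pools they ran from -0.47 for Igtp to 0.18 for Gbp2b and Ifi47, and in WT pools from -0.17 for Irgm2 to 0.23 for Gbp2b. None of the 6 genes reached 2-fold in either genotype in either step. From ethanol to TNBS 4.14% of all genes did in Foxo4_KO pools and 1.4% in WT pools, and from untreated to ethanol 1.98% did in Foxo4_KO pools and 1.41% in WT pools.

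**Figure D4:**
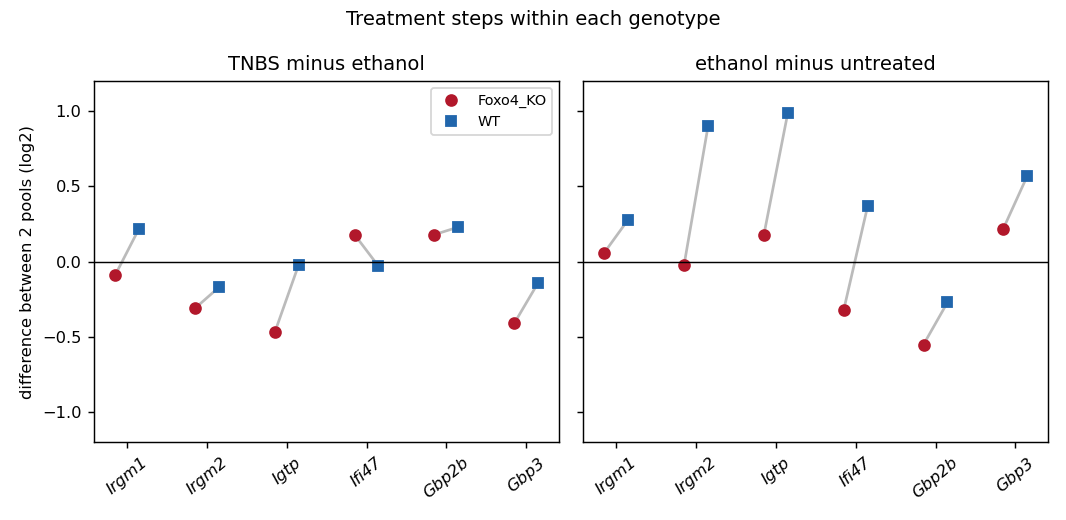
Difference between 2 pools of the same genotype (vertical axis, log2) for TNBS minus ethanol (left) and ethanol minus untreated (right) for each of the 6 genes, with Foxo4_KO as red circles and WT as blue squares joined by a line. On the right every circle lies below its square, most widely for Irgm2 and Igtp.

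Other GTPases of these families and related large GTPases gave 5 measured genes of 24 listed. Of these, 4 were higher in Foxo4_KO in all 3 treatments, as 13.3% of all genes were, and 1 passed the adjusted test. That gene was Mx2, a dynamin-like antiviral GTPase, with a mean log2 signal of 6.66 over the Foxo4_KO pools (the lowest being 6.27, after ethanol). No WT pool was above background, so Mx2 entered the test through its Foxo4_KO pools alone. It is given as at least 1.88-fold higher. Its adjusted p (0.0355 by limma) belongs to the fitted difference of 1.73, which used the undetected WT signals. Gm12250, the effector Irg gene also known as Irgb10, was 0.94 higher (adjusted p = 0.144), with 6.60, 6.99 and 7.18 in Foxo4_KO pools, against 5.93, 6.16 and 5.86 in WT pools. Gbp7 was 0.70 higher (adjusted p = 0.147), with 6.93, 6.94 and 6.77 in Foxo4_KO pools, against 6.31, 6.28 and 5.95 in WT pools. Both were separated between the genotypes in the manner of the 6 genes. Irgq, an Irg relative that interferon is not known to induce, differed by 0.05, and Gbp4, Gbp5, Gbp6, Gbp8 and Gbp9 were above background on no array.

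Upstream of the GTPases, the genes for interferon gamma (Ifng), interferon beta (Ifnb1) and the interferon alphas measured (Ifna1, Ifna2 and Ifna4) were above background on no array. Of 21 measured genes for interferons, receptors and signal transducers, 8 were higher and 3 lower in Foxo4_KO in all 3 treatments, none passed the adjusted limma test, and the median difference was 0.26. The largest differences were in Stat2, a transcription factor of the type I response, Ciita, the activator of MHC class II genes, Irf7, the amplifier of interferon alpha genes, and Nlrc5, the activator of MHC class I genes. Stat2 and Nlrc5 were above background in no WT pool, so both entered the test through their Foxo4_KO pools alone. The bound for Stat2 was a Foxo4_KO signal 1.7 times that of WT or more, and for Nlrc5 1.45 times or more. Their adjusted p-values (0.0943 and 0.153 by limma) belong to the fitted differences of 1.16 and 0.67, which used the undetected WT signals. Ciita, above background in 1 WT pool, differed by 1.11 (adjusted p = 0.232), and Irf7 by 0.70 (adjusted p = 0.407). Of 7 genes that curb the pathway, such as Socs1, which blocks JAK kinases, 1 was higher and 1 lower in all 3 treatments, none passed, and the median was -0.04. Beside the counts of both lists, 13.3% of all genes were higher and 18.6% lower in all 3 treatments.

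Among other targets of interferon gamma, 16 of 20 measured genes were higher in Foxo4_KO in all 3 treatments, none was lower, the median was 0.61 and 1 passed. The gene that passed was Cxcl9, a chemokine that draws activated T cells (1.66, adjusted p = 0.0293), though it was above background in only 1 of 3 WT pools. H2-Ab1 (1.69, adjusted p = 0.0832), Cd74 (1.53, adjusted p = 0.113) and H2-DMa (1.29, adjusted p = 0.0662), which serve MHC class II presentation, did not pass, and H2-DMa was above background in 1 WT pool. Among type I interferon targets, 15 of 19 were higher in all 3 treatments, none was lower, the median was 0.95, and Ifit2 (2.55, adjusted p = 0.00962) and Rsad2 (1.95, adjusted p = 0.03), both antiviral effectors, passed. Ifi27l2a (2.48, adjusted p = 0.289) and Oas2 (2.40, adjusted p = 0.0622) did not. Of the 15, Ifit3, Oas3, Ddx58 and Oasl2 were above background on only 1, 2, 4 and 5 of the 6 arrays. Tap1, counted as higher among the interferon gamma targets, was above background on 3. Their part in these counts rests on signals below detection. Of 14 autophagy genes, in whose pathway Irgm1 has been placed, none was higher and 2 were lower in all 3 treatments, with a median of -0.02. Over all genes, 13.3% were higher and 18.6% lower in all 3 treatments.

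**Figure D5:**
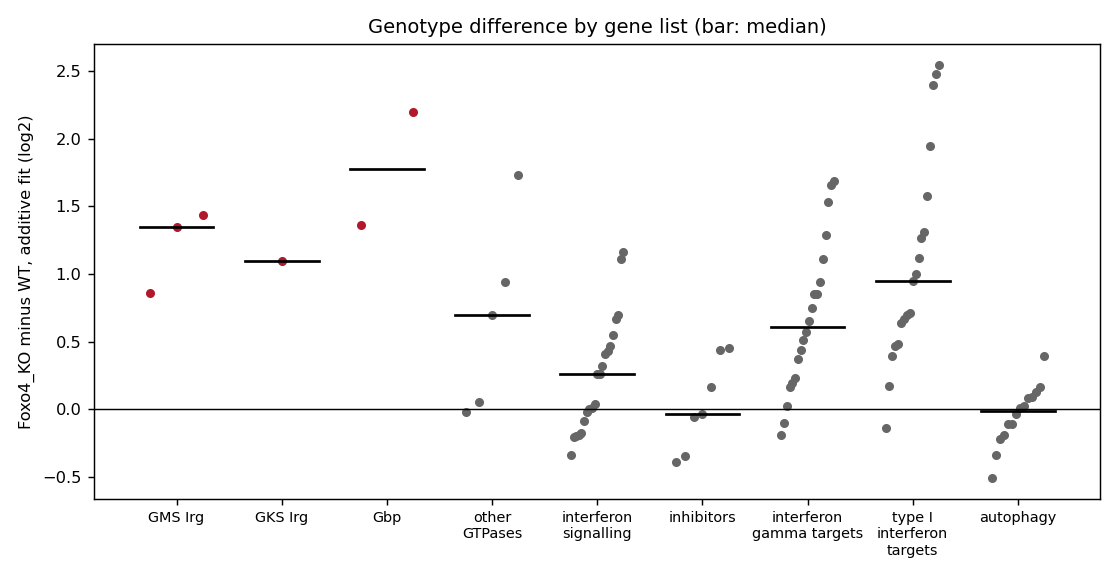
Genotype difference, Foxo4_KO minus WT (vertical axis, log2, additive fit), of each measured gene (points, spread sideways in order of size) in the lists on the horizontal axis, with the GTPase genes studied here in red and a bar at each list's median. The medians are 0.70 for other GTPases, 0.26 for interferon signalling, 0.61 for interferon gamma targets, 0.95 for type I interferon targets and -0.02 for autophagy.

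Lists of cell type markers were described in the same way, and none of the genes in the 5 lists given here passed the adjusted limma test for genotype. The B and plasma cell list had 5 of its 7 measured genes higher in Foxo4_KO in all 3 treatments, against 13.3% of all genes. Among these, Cd79a, Pou2af1 and Tnfrsf17 were above background on only 3, 2 and 2 of the 6 arrays. Their part in the count thus rests on signals below detection. The list's median difference of 1.26 was that of Pou2af1. Medians of the list by treatment were 0.52 (TNBS), 2.20 (ethanol) and 1.05 (untreated), against 1.03, 1.21 and 1.86 for the GTPase genes. Mzb1 (1.57) and Cd79b (1.43), above background on all 6 arrays, were among the largest. The T and NK cell list had 5 of 7 higher, with a median of 0.76 (0.67, 1.07 and 0.65 in TNBS, ethanol and untreated pools). The monocyte and macrophage list had 7 of 8 higher, with a median of 0.74 (0.55, 1.21 and 0.30 in the same order). Of 10 endothelial markers 4 were higher, with a median of 0.54 (0.77, 0.74 and 0.04). Of 8 smooth muscle markers 4 were higher, with a median of 1.22 (1.07, 2.60 and 0.03). Some genes counted as higher in these other lists were also above background on only some arrays. For T and NK cells these were Nkg7, Cd3g and Klrd1 (3, 4 and 4 of 6 arrays). For monocytes and macrophages they were Adgre1 and Mpeg1 (1 and 4 arrays). Eng among endothelial and Tagln among smooth muscle markers were above background on 2 arrays each. Their part in the counts likewise rests on signals below detection.

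The summed signal of the B and plasma cell list was 4246 to 4370 in Foxo4_KO pools and 3305 to 3863 in WT pools, most of it from Xbp1, which differed by 0.07, and without that gene it was 511 to 1144 in Foxo4_KO pools and 279 to 428 in WT pools. The T and NK cell sum was 1899 to 2093 in Foxo4_KO pools and 1496 to 1785 in WT pools, or 538 to 845 in Foxo4_KO pools and 298 to 539 in WT pools without Cd8b1, which differed by 0.15. The monocyte and macrophage sum was 2883 to 3504 in Foxo4_KO pools and 1536 to 1953 in WT pools. Without Laptm5, which differed by 1.22, it was 1293 to 1750 in Foxo4_KO pools and 1016 to 1229 in WT pools. These 3 sums were higher in every Foxo4_KO pool than in any WT pool, apart from the T and NK cell sum without Cd8b1, whose ranges met. The endothelial sum, 1088 to 1674 in Foxo4_KO pools and 836 to 1053 in WT pools, was separated in the same way. That of smooth muscle was 3331 to 20818 in Foxo4_KO pools and 3148 to 8513 in WT pools, and overlapped. Among single genes, 5.93% of all tested were separated in this direction. The sums without the brightest gene were added after the data were seen. Cd4, Gzma, Gzmb, Itgam and Ccr2 were above background on no array. The part of these cells in the GTPase signals was not tested.

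The genes whose profile over the 6 pools was most like that of Irgm1, Irgm2, Igtp, Ifi47 and Gbp3 were found from the root mean square difference of centred log2 signals to the mean profile of these 5 genes. The nearest was Dhx58, a cytoplasmic RNA sensor (0.16), followed by Psmb8, an immunoproteasome subunit (0.16), Stat2 (0.18), Nkx2-3, a homeobox gene of gut mesenchyme (0.19), Tor1aip2 (0.19), Il18bp, a secreted inhibitor of interleukin-18 (0.21), Dlk1 (0.23) and Gm12250 (0.23). Stat2 and Nkx2-3 were above background in no WT pool, so their distances rest on WT signals below detection. The median over all genes was 0.69. For comparison, the 5 genes themselves lay 0.11 (Gbp3) to 0.21 (Irgm1) from their mean. Gbp2b, at 0.58, was farther away, its profile being wider between genotypes and without the low untreated WT pool.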

How the data were processed

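Total RNA of 6 pools of colonic mucosa was amplified to biotin-labelled cRNA and read on Illumina mouse bead arrays, per the labels' protocols. The deposited unnormalized table holds an intensity per target without background subtraction and, per the file headers, a p-value for detection. Because that value rises with the signal (Spearman 0.997 to 0.998 over probes), its complement was used as p. In the second table the authors gave quantile-normalized intensity values with probe identifiers. The tables were joined by matching signal profiles over the 6 arrays (within 0.05 on the log2 scale and a second match at least 2 times as far), which joined 46596 of 46628 targets. Entrez numbers matched for 6860 of 6977 targets that carry one, and 1 did after shuffling.

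Signals were processed with neqc in limma 3.58.1 (R 4.3.3): background from detection p, quantile normalization, log2, offset 16. Probes with 1 symbol (29956 of those joined) and detection p under 0.01 on at least 1 array were kept (11765), and the brightest probe on average stood for each of 8948 genes. Probes with no single symbol (16640) were left out. An additive model of treatment and genotype left 2 residual degrees of freedom, with 3.84 prior ones (prior SD 0.184). P-values are two-sided, adjusted over all genes by Benjamini-Hochberg, with a threshold of 0.05. They are set against how far the genotype difference varied between treatments, together with the prior. They do not measure spread between mice, since a group is 1 pool and the labels' numbers count arrays. In that variation, differences between genotypes in response and noise of single pools cannot be told apart. The fit was run on 20 simulated datasets in which 200 of 8948 genes differed by genotype. It recovered 95.6% of differences of 1 on the log2 scale and 100% of those of 3, and 7.19% of genes called were false. The simulated pools held no treatment effect and no difference between genotypes in response, so these shares need not hold for the real pools.

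A pool not above background is given by a bound: the higher of its own signal and the lowest detected signal on that array. Summed marker signals are sums of normalized linear signals, offset included. Promoter sequences are RefSeq's (GRCm38.p6), and proteins were not used here. Lists, list members and the rule for named genes (every gene studied here, up to 4 genes with the largest genotype difference in a list, and the 8 most similar profiles) were chosen with earlier results of these data known. Alternatives were no background correction, median scaling, the authors' values, offset 50, no filter, a filter on all 6 arrays, probes kept apart or averaged, a trended robust prior, and each pool left out. The number of arrays limits precision. Python 3.11.15, pandas 2.3.3 and matplotlib 3.10.9 made tables and figures.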

Additional observations from a re-analysis of the deposited data

Results flagged for a closer look

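The steps of 3 of the GTPase genes ran in opposite directions in the Foxo4_KO and WT pools. None of these differences was tested, since each rests on 4 single pools. Irgm2 was 0.02 lower after ethanol than untreated in Foxo4_KO pools and 0.90 higher in WT pools, a difference of -0.92 (Foxo4_KO step minus WT step, log2). Ifi47 was 0.32 lower in Foxo4_KO pools and 0.37 higher in WT pools over the same step, a difference of -0.69. From ethanol to TNBS, Irgm1 was 0.09 lower in Foxo4_KO pools and 0.22 higher in WT pools, a difference of -0.32, and Ifi47 was 0.18 higher in Foxo4_KO pools and 0.03 lower in WT pools, a difference of 0.21. The smaller steps among these are below the residual SD of the gene in the additive fit (0.28 for Irgm2, 0.21 for Ifi47, 0.19 for Irgm1). Exceptions are Irgm2 in WT after ethanol, Ifi47 in both genotypes after ethanol, and Irgm1 in WT after TNBS. That SD is for a single pool. A step is a difference between pools and spreads more widely, so exceeding the SD does not set a step apart from noise.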

How the results depend on the processing

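No paired analysis was possible because each group is 1 pool and the labels' numbers count arrays, apart from the additive fit itself, which compares both genotypes within each treatment. The 6 genes stayed higher in Foxo4_KO in every alternative in which they were tested (Gbp2b falls out of a filter on all 6 arrays). The number of them passing for genotype, 1 as reported, was 6 with median scaling, 2 with offset 50, 2 with a trended robust prior, 0 with no filter on dim probes and 0 with any 1 pool left out (1 residual degree of freedom, and no gene called at all). Beside Gbp2b, the gene passing was Gbp3 with offset 50 (adjusted p = 0.0404 by limma) and with the trended robust prior (0.0365). With the filter on all 6 arrays, the 1 gene passing was Gbp3 (0.0372). In TNBS pools the number at least 2-fold apart, 4 as reported, was 1 without background correction, with the authors' values and with offset 50, and in untreated pools, 6 as reported, it was 4 without background correction and with the authors' values and 5 with median scaling. The median difference of the TNBS step between genotypes, -0.20 as reported, was 0.17 with median scaling, under which the median of all genes was 0.30; relative to all genes it was -0.22 and -0.13. Leaving out each pool moved the median of TNBS minus ethanol between -0.32 and 0.16, that of ethanol minus untreated between -0.04 and 0.50, and that of TNBS minus untreated between -0.19 and 0.41. Reversals were limited to treatment contrasts that passed no test. Ifi47 for ethanol minus untreated was -0.01 without background correction, with the authors' values and with offset 50, and ran from -0.27 to 0.32 with pools left out. With pools left out, TNBS minus ethanol ran from -0.15 to 0.28 for Irgm1, -0.54 to 0.06 for Irgm2, -0.67 to 0.18 for Igtp and -0.15 to 0.30 for Ifi47. TNBS minus untreated ran from -0.29 to 0.69 for Irgm2, -0.18 to 0.86 for Igtp, -0.19 to 0.40 for Ifi47 and -0.12 to 0.36 for Gbp3. Ethanol minus untreated ran from -0.02 to 0.36 for Irgm1 and -0.05 to 0.93 for Irgm2. The cause of these changes was not tested. Signals near background limit the size that can be given to a difference. This holds for the WT pools of Gbp2b, Ifi47, Cxcl9, H2-DMa, Ciita, Stat2, Nlrc5, Nkx2-3, Mx2, Cd79a, Pou2af1 and Tnfrsf17. It also holds for Tap1, Ifit3, Oas3, Ddx58, Oasl2, Cd3g, Nkg7, Klrd1, Adgre1, Mpeg1, Eng and Tagln, each above background on only some arrays.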
